A study of Homo sapiens with 6 samples.

Results

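Genes of the non-muscle actin cytoskeleton were followed on 6 arrays of MCF10A cells, an established non-tumorigenic line of human mammary epithelium. The genes were chosen by function after the lower ACTB values on the RB-deficient arrays had been seen, and the question was whether that lower signal is shared by other actin genes and regulators. The list names 46 genes, of which 39 were read by a probe set with exactly 1 gene symbol, among 18417 genes in all. Of the other 7, ACTR2, WDR1, CAP1, FLNA and TPM3 are not paired with a probe set in the annotation used, and ARPC4 and EZR sit on probe sets that carry several symbols, so these were not analysed here. TPM4 alone had more than 1 probe set with a single symbol, and the one with the highest mean over the 6 arrays was taken. MYL12A and MYL12B are each also listed on 1 probe set with several symbols, which was not used. Because the level of ACTB prompted the question, its difference is given as a description without a test, and every count below covers the 38 other genes.

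Cells labelled RB-deficient (3 arrays, with the tag miRB in their titles) were set against cells labelled RB-proficient (3 arrays, tag miNS). All 6 samples share the MCF10A background with ErbB2, a receptor tyrosine kinase, and 7 days of 3-D growth on reconstituted basement membrane, and cells and matrix were lysed together. RB, the retinoblastoma protein, restrains E2F transcription factors. The labels say neither how RB was lowered, nor whether a line is a clone, nor whether replicates are separate cultures. The p-values therefore reflect the variation among these 6 samples, part or all of which may be technical.

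Actin exists as monomers and as filaments, and cells shift it between the 2 states all the time. Profilins and Ena/VASP proteins help filaments grow, the Arp2/3 complex starts branches, capping protein stops growth, and cofilins and gelsolin-like proteins take filaments apart. Tropomyosins coat filaments, non-muscle myosin II pulls on them, and ezrin-radixin-moesin proteins, vinculin and talin tie them to membranes and adhesions. In mammary epithelium these filaments form the cortical and junctional belts that hold an acinus in shape.

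Values are log2 intensities after scaling of the arrays to the same median, with a floor of 1, and a difference is the RB-deficient mean minus the RB-proficient mean (n = 3 each). Array medians before scaling ran from 21.4 to 28.05 on the RB-deficient arrays and from 24.2 to 27.1 on the RB-proficient arrays, and the number of arrays limits the precision. At the floor were 4.71%, 1.62% and 0.684% of genes on RB-deficient arrays 1 to 3, and 0.407%, 0.326% and 0.684% on RB-proficient arrays 1 to 3. RB1, which encodes RB, had log2 values of 3.45, 5.09 and 6.04 on RB-deficient arrays 1 to 3, and 7.01, 5.77 and 7.65 on RB-proficient arrays 1 to 3. The groups overlapped for RB1 (difference −1.95, SE 0.76, adjusted p = 0.302 in limma's test), so every direction here rests on the labels. Pearson's r across genes, whose values are not independent, was 0.67 to 0.75 between RB-deficient arrays and 0.90 to 0.92 between RB-proficient arrays, and RB-deficient array 3 had r of 0.83 to 0.88 with the RB-proficient arrays. Of the 7 measured of 10 epithelial markers 5 had a difference below 0 (71.4%, against 58.6% of all genes), with a list median of −1.27. CDH1 (−1.54), KRT8 (−1.33) and KRT18 (−1.27) were separated with the RB-deficient arrays below (42.9% of the 7, against 15.3% of all genes). KRT5 (−2.40) and KRT14 (−0.71) overlapped, EPCAM (0.24) was separated above (14.3%, against 7.12% of all genes) and KRT19 (0.39) overlapped. None of the 7 passed an adjusted p of 0.05 in limma, and 3 were lower at an unadjusted p under 0.05 (42.9%, against 10.8% of all genes). These markers summed to 1947 to 2825 intensity units on the RB-deficient and 2812 to 5731 on the RB-proficient arrays. The 6 fibroblast markers summed to 117 to 291 on RB-deficient and 114 to 176 on RB-proficient arrays, 5 endothelial markers to 307 to 360 on RB-deficient and 477 to 598 on RB-proficient arrays, 5 of 6 leukocyte markers to 133 to 211 on RB-deficient and 117 to 122 on RB-proficient arrays, and 6 smooth muscle markers to 225 to 348 on RB-deficient and 274 to 344 on RB-proficient arrays. The endothelial sums were all lower, and the leukocyte sums all higher, on the RB-deficient arrays, and the other sums overlapped. No marker of these lists was at the floor on any array, CDH5 gave most of the endothelial sum, and the part of other cells in the results below was not tested.

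Most actin cytoskeleton genes had lower signals on the RB-deficient arrays, but mostly by less than ACTB, and none of the 38 passed an adjusted p of 0.05. In bulk RNA of this kind, fewer cells of a type and less RNA per cell cannot be told apart. FLII (difference −3.18), VASP (−2.26), TLN1 (−2.24) and ACTN4 (−1.83) were the lowest, and MYL12B (0.27) and ENAH (0.40) the highest. In all, 32 of the 38 had a difference below 0 (84.2%), where 58.6% of all genes did. The median difference was −0.69 over the 38 genes and −0.21 over all genes, which leaves −0.48 relative to all genes. Differences below −1, which are over 2-fold lower, were found for 12 of the 38 genes (31.6%), against 21.6% of all genes.

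Complete separation, with all 3 RB-deficient values below all 3 RB-proficient values, was found for 11 of the 38 genes (28.9%), where 15.3% of all genes were separated that way. These 11 were ACTG1, ARPC2, VASP, FLII, TMSB10, CAPZB, ACTN4, MYL6, TPM4, VCL and CTTN. In the opposite direction 0 of the 38 were separated, against 7.12% of all genes. At an unadjusted p under 0.05, limma gave 6 of the 38 as lower (15.8%) and 0 as higher, where 10.8% of all genes were lower. After adjustment over all genes 0 of the 38 passed, where 0.00543% of all genes did, and the smallest adjusted p among the 38 was 0.206, for FLII.

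The actin genes are bright, and bright genes were lower in general, so the comparison was also made within the brightest 25% of genes, a choice made after seeing the data. Of the 38 genes 29 lay in that range, and 23 of these had a difference below 0 (79.3%), against 71.3% of all genes as bright. Their median difference was −0.50, against −0.38 for all genes in that range. Separation with the RB-deficient arrays below was found for 9 of the 29 (31.0%), against 21% of all genes in that range. In the opposite direction 0 of the 29 were separated, against 3.47%. Differences below −1 were found for 6 of the 29 (20.7%), against 17.4%. At an unadjusted p under 0.05, limma gave 3 of the 29 as lower (10.3%), against 8.93%. The gap between the medians was smaller there than over all genes, and it was not tested.

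**Figure D1:**
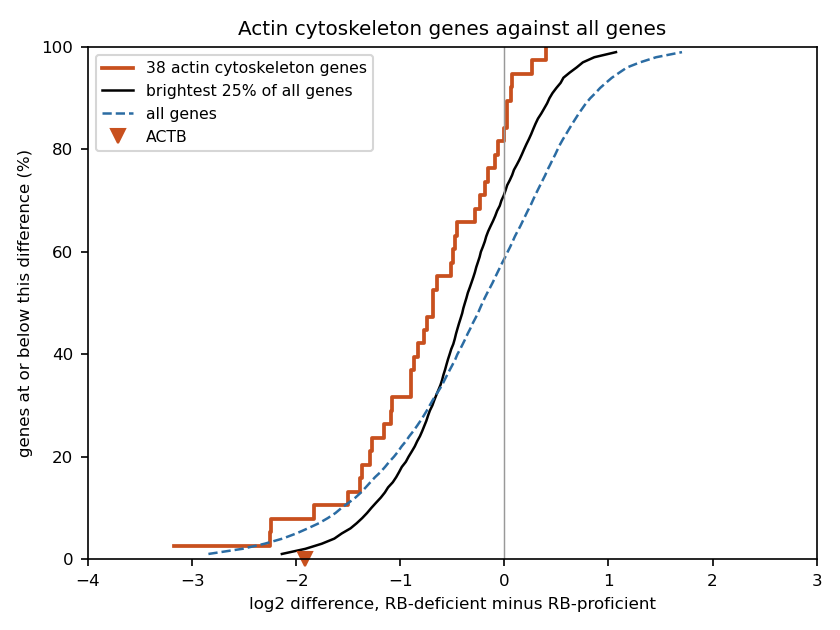
Share of genes (y axis, percent) at or below each log2 difference between RB-deficient and RB-proficient arrays (x axis), for the 38 actin cytoskeleton genes other than ACTB, all 18417 genes and the brightest 25% of them, with ACTB as a triangle at its own difference of −1.92. The 38 actin genes have a median of −0.69, against −0.21 for all genes. The 29 of them that lie in the brightest 25% have a median of −0.50, against −0.38 for all genes in that range.

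The cytoplasmic actins differed in how far they were lower. ACTB, which encodes beta-actin, had log2 values of 7.84, 7.32 and 6.81 on RB-deficient arrays 1 to 3, and 9.22, 9.04 and 9.46 on RB-proficient arrays 1 to 3. Every RB-deficient value lay more than 1 log2 unit below every RB-proficient value, and the lowest was on RB-deficient array 3, the array that is most like the RB-proficient ones over all genes. The means were 7.33 ± 0.52 in RB-deficient and 9.24 ± 0.21 in RB-proficient cells (SD, n = 3 each), a difference of −1.92, or 3.77-fold lower. Of all genes, 5.73% had a lower difference than ACTB, as did 1.95% of the brightest 25%.

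ACTG1, which encodes gamma-actin, a near-identical protein, had values of 7.96, 7.60 and 7.47 on the RB-deficient arrays, and 8.59, 8.40 and 8.35 on the RB-proficient arrays. Its groups did not overlap either, with the same RB-deficient array lowest, but the gap was smaller. The difference of −0.77 (SE 0.46, 95% interval −1.81 to 0.27) was 1.71-fold and had adjusted p = 0.487 by limma. Of all genes, 28.1% had a lower difference than ACTG1. How far the probes of these similar transcripts read each other's target was not tested.

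Actin genes are classic targets of serum response factor, which binds the CArG box and is switched on when the pool of free actin monomers shrinks. The promoter windows in the RefSeq table (GRCh38.p14, 250 bases before to 50 after each gene's start) were therefore searched for the CArG box, whose pattern is its own reverse complement, so that 1 strand covers both. Of the 39 measured genes 34 had a window (ACTB, ARPC1B, PFN2, MYL9 and CTTN had no entry), and 3 of these held a match (8.82%), against 1.60% of all 27305 genes with a window. Those 3 stretches are shown, each 60 bases long with the match in capitals, because they are the matches among the genes described here. They lie at chr17:81512859-81512918 on the minus strand for ACTG1, at chr14:68977703-68977762 on the minus strand for ACTN1 and at chr19:16067340-16067399 on the plus strand for TPM4, and the matches begin 94, 171 and 173 bases before the start of the gene.
ACTG1: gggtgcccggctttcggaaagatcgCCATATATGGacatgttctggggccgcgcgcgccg
ACTN1: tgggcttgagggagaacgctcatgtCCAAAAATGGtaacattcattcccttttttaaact
TPM4: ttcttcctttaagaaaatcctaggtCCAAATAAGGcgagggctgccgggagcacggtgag
The differences of these genes were −0.77 for ACTG1, −0.83 for ACTN1 and −0.50 for TPM4. A match is a stretch of letters and not a site of binding, and a gene without one in this window may carry it elsewhere.

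The Arp2/3 complex, which starts new filaments as branches on old ones, had 6 of its 8 listed subunits measured, and their differences ran from −1.27 to 0.07 with a median of −0.35. ARPC2, a subunit that holds the complex to the mother filament, stood apart. Its log2 values were 10.02, 8.99 and 10.24 on the RB-deficient arrays, and 10.68, 11.01 and 11.37 on the RB-proficient arrays. All RB-deficient values lay below all RB-proficient ones, with array 2 lowest, and the difference of −1.27 (SE 0.53, 2.42-fold) had adjusted p = 0.337 in limma's test.

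The other subunits gave overlapping groups. ARPC1A, one of the alternative WD-repeat subunits, differed by −0.90, and its value of 5.05 on RB-deficient array 3 lay far below the 7.06 and 6.42 of arrays 1 and 2. Without that array its difference was −0.33. ARPC1B, the alternative form of the same subunit, differed by 0.07 (95% interval −1.13 to 1.26), and RB-deficient array 2, at 7.90, was the only one of the 6 above 7.13. ACTR3, the Arp3 core protein, differed by −0.52, ARPC5 by −0.19 and ARPC3 by −0.09, and ARPC3 turned positive after quantile normalization (0.10) and after centring (0.043).

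Among the factors that feed filament growth, VASP was the lowest. VASP, which binds growing filament ends at the leading edge and at adhesions, had log2 values of 3.57, 5.45 and 5.62 on the RB-deficient arrays, and 6.67, 6.89 and 7.85 on the RB-proficient arrays. No value overlapped, and RB-deficient array 1 lay far below the rest. The difference of −2.26 (SE 0.66, 95% interval −3.75 to −0.76) was 4.78-fold with adjusted p = 0.231 in limma's test, and it was −1.60 without RB-deficient array 1.

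The relatives of VASP did not share its position. ENAH, the mammalian Ena protein, had values of 8.98, 8.29 and 7.19 on the RB-deficient arrays, and 7.95, 7.30 and 8.02 on the RB-proficient arrays. Its groups overlapped, with RB-deficient array 1 the highest of all 6, and its difference of 0.40 (95% interval −0.91 to 1.71) was the most positive of the 38; it was −0.016 without that array. EVL, the third member of the family, differed by −0.90 with overlap. PFN1, the main profilin, which delivers monomers to growing ends, had values of 8.41, 8.64 and 7.45 on the RB-deficient arrays and 8.92, 8.56 and 8.98 on the RB-proficient arrays, and differed by −0.65. PFN2, a second profilin, differed by −0.69, and in both cases 1 RB-deficient array lay within the RB-proficient range.

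Filament turnover held the gene with the lowest difference of the 38. FLII, the flightless protein of the gelsolin family, which also works as a coregulator of transcription, had log2 values of 3.69, 3.22 and 5.09 on the RB-deficient arrays, and 6.92, 7.22 and 7.41 on the RB-proficient arrays. The gap between the highest RB-deficient and the lowest RB-proficient value was wider than the spread within the RB-proficient group. The SD was 0.97 in RB-deficient and 0.25 in RB-proficient cells (n = 3 each), and the difference was −3.18 (SE 0.59, 95% interval −4.50 to −1.86), or 9.05-fold. In limma's test FLII had adjusted p = 0.206. It passed with eBayes with trend and robust (adjusted p = 0.0253, where 0.331% of all genes passed). It also passed with an offset of 16 in place of the floor (adjusted p = 0.0196, where 1.05% of all genes passed). The FLII difference shrank to −2.28 with that offset and to −2.82 with a floor of 16 (adjusted p = 0.0873 in limma's test). On RB-deficient arrays 1 and 2 FLII lay below the median of all genes, so its fold rests partly on dim values. Of all genes, 0.467% had a lower difference than FLII.

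Gelsolin itself, GSN, which severs and caps filaments, was dim and spread widely, at 4.03, 2.22 and 5.13 on the RB-deficient arrays and 4.59, 4.79 and 5.28 on the RB-proficient arrays. Its groups overlapped, and its difference of −1.09 was −0.31 without RB-deficient array 2. The cofilin family, which cuts aged filaments, stayed closer to 0. CFL1, the main non-muscle cofilin, differed by −0.46 (95% interval −1.52 to 0.61), CFL2 by −0.23 and the relative DSTN, destrin, by −0.48, all with overlap.

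DSTN showed how single arrays weigh in: it was at 9.97, 8.13 and 10.10 on the RB-deficient arrays and at 9.74, 9.73 and 10.16 on the RB-proficient arrays. Only RB-deficient array 2 was low, and without it the difference was 0.16. TMSB10, a thymosin that binds actin monomers, had values of 11.33, 10.51 and 10.24 on the RB-deficient arrays and 11.45, 11.44 and 11.78 on the RB-proficient arrays. The TMSB10 groups did not overlap, and RB-deficient array 1 came within 0.2 of the RB-proficient ones (difference −0.87, SE 0.50, adjusted p = 0.474 in limma's test).

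Capping protein, a dimer of an alpha and a beta subunit that blocks growing ends, was split between its subunits. CAPZB, the beta subunit, had log2 values of 7.24, 6.47 and 6.49 on the RB-deficient arrays, and 7.76, 7.63 and 8.28 on the RB-proficient arrays. All RB-deficient values were below, and the difference was −1.16 (SE 0.50, 2.23-fold, adjusted p = 0.350 in limma's test). Of the alpha subunits, CAPZA1 differed by −0.28 (95% interval −1.33 to 0.76) and CAPZA2 by −0.00018 (95% interval −1.13 to 1.13), both with overlap. The sign of CAPZA2 was positive after quantile normalization (0.22) and centring (0.13).

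The crosslinker ACTN4, the alpha-actinin of stress fibres and junctions in non-muscle cells, was lower on all 3 RB-deficient arrays. It was read at 7.89, 6.69 and 8.34 on the RB-deficient arrays, and at 9.41, 9.47 and 9.53 on the RB-proficient arrays. The RB-deficient values were spread (SD 0.85) while the RB-proficient values were tightly grouped (SD 0.064), and the groups lay over 1 log2 unit apart. The difference of −1.83 (SE 0.55, 95% interval −3.07 to −0.59) was 3.56-fold, close to that of ACTB, with adjusted p = 0.235 in limma's test, and ACTN4 passed with the offset of 16 (adjusted p = 0.0481). ACTN1, the other non-muscle alpha-actinin, was at 6.02, 4.89 and 3.76 on the RB-deficient arrays and 5.26, 5.53 and 6.38 on the RB-proficient arrays. Its groups overlapped, since RB-deficient array 1 was above 2 RB-proficient arrays, and its difference of −0.83 was −0.27 without RB-deficient array 3.

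Non-muscle myosin II was lower in its heavy chains and mixed in its light chains. MYH9, the heavy chain of the main epithelial form, had log2 values of 5.46, 6.35 and 7.13 on the RB-deficient arrays, and 6.86, 7.88 and 8.30 on the RB-proficient arrays. RB-deficient array 3 lay above RB-proficient array 1, so the groups overlapped (difference −1.37, SE 0.62, adjusted p = 0.369 in limma's test). MYH10, a second heavy chain, differed by −1.39 (SE 0.69), also with overlap.

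Among the light chains, MYL6, the essential light chain, had separate groups. Its values were 11.29, 11.01 and 10.94 on the RB-deficient arrays, and 11.75, 11.75 and 11.80 on the RB-proficient arrays. All RB-deficient values lay below, and the difference was −0.69 (95% interval −1.72 to 0.34), and its adjusted p was 0.528 in limma, which draws each gene's spread toward that of all genes. The regulatory light chains, whose phosphorylation switches the motor on, were near 0. MYL12A was at 9.58, 9.48 and 8.73 on the RB-deficient arrays and 9.47, 9.09 and 9.00 on the RB-proficient arrays, and MYL12B at 10.24, 9.92 and 9.23 on the RB-deficient arrays and 9.92, 9.24 and 9.42 on the RB-proficient arrays. Both pairs of groups overlapped widely, with RB-deficient array 1 the highest of the 6 and array 3 the lowest. The differences were 0.08 for MYL12A (95% interval −1.03 to 1.18; −0.13 with array weights), 0.27 for MYL12B (−0.87 to 1.41) and −0.06 for MYL9, which was positive after quantile normalization (0.092) and centring (0.075).

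The tropomyosins differed least as a group, with a median of −0.16 over TPM1, TPM2 and TPM4. TPM4, a short non-muscle form, had log2 values of 10.70, 10.37 and 10.65 on the RB-deficient arrays, and 10.95, 11.09 and 11.17 on the RB-proficient arrays. Its groups did not overlap, but the difference of −0.50 (95% interval −1.52 to 0.53) was small, with adjusted p = 0.649 in limma's test. The dimmer TPM4 probe set, not used here for the counts, was at 8.27, 6.79 and 8.02 on the RB-deficient arrays and 8.93, 8.01 and 8.83 on the RB-proficient arrays, and there the groups overlapped. With the mean of both probe sets the TPM4 difference was larger, at −0.70. TPM1 was at 8.91, 8.99 and 8.91 on the RB-deficient arrays and differed by −0.16, within an RB-proficient range of 8.57 to 9.45. TPM2 differed by 0.02 (95% interval −1.38 to 1.43), and by −0.023 without scaling.

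The membrane linkers MSN, moesin, and RDX, radixin, gave different pictures. MSN had values of 8.06, 5.21 and 6.03 on the RB-deficient arrays, and 7.49, 7.37 and 8.94 on the RB-proficient arrays. RB-deficient array 1 lay inside the RB-proficient range and the other 2 well below it, so the difference of −1.50 came with a wide interval (−3.26 to 0.26); it was −2.32 without array 1 and −0.89 without array 2. RDX differed by 0.03 (95% interval −1.18 to 1.23), with overlapping groups, and by −0.018 without scaling.

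The adhesion genes had the lowest median among role groups of 3 or more measured genes, −1.19 over 4 genes, all below 0. VCL, vinculin, which reinforces integrin and cadherin adhesions under tension, had log2 values of 6.52, 6.25 and 6.39 on the RB-deficient arrays, and 7.27, 7.13 and 8.00 on the RB-proficient arrays. The RB-deficient arrays were close to each other and all below (difference −1.08, SE 0.49, 2.12-fold, adjusted p = 0.368 in limma's test). TLN1, talin, which links integrins to actin, was at 4.10, 4.07 and 5.96 on the RB-deficient arrays and 5.50, 7.38 and 7.97 on the RB-proficient arrays. RB-deficient array 3 reached above RB-proficient array 1, and the difference of −2.24 (SE 0.78, 4.72-fold) had adjusted p = 0.277 in limma's test.

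ZYX, zyxin, a tension-responsive protein of adhesions that recruits VASP, was at 3.48, 5.38 and 6.03 on the RB-deficient arrays and 5.64, 6.36 and 6.75 on the RB-proficient arrays. As for VASP, RB-deficient array 1 was the lowest by far, and the difference of −1.29 was −0.55 without it. CTTN, cortactin, which stabilises Arp2/3 branches, was at 8.88, 7.97 and 9.04 on the RB-deficient arrays and 9.18, 9.37 and 9.56 on the RB-proficient arrays. Its groups did not overlap, though RB-deficient array 3 came within 0.2 of the RB-proficient ones, and the difference was −0.74 (SE 0.51, adjusted p = 0.541 in limma's test).

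**Figure D2:**
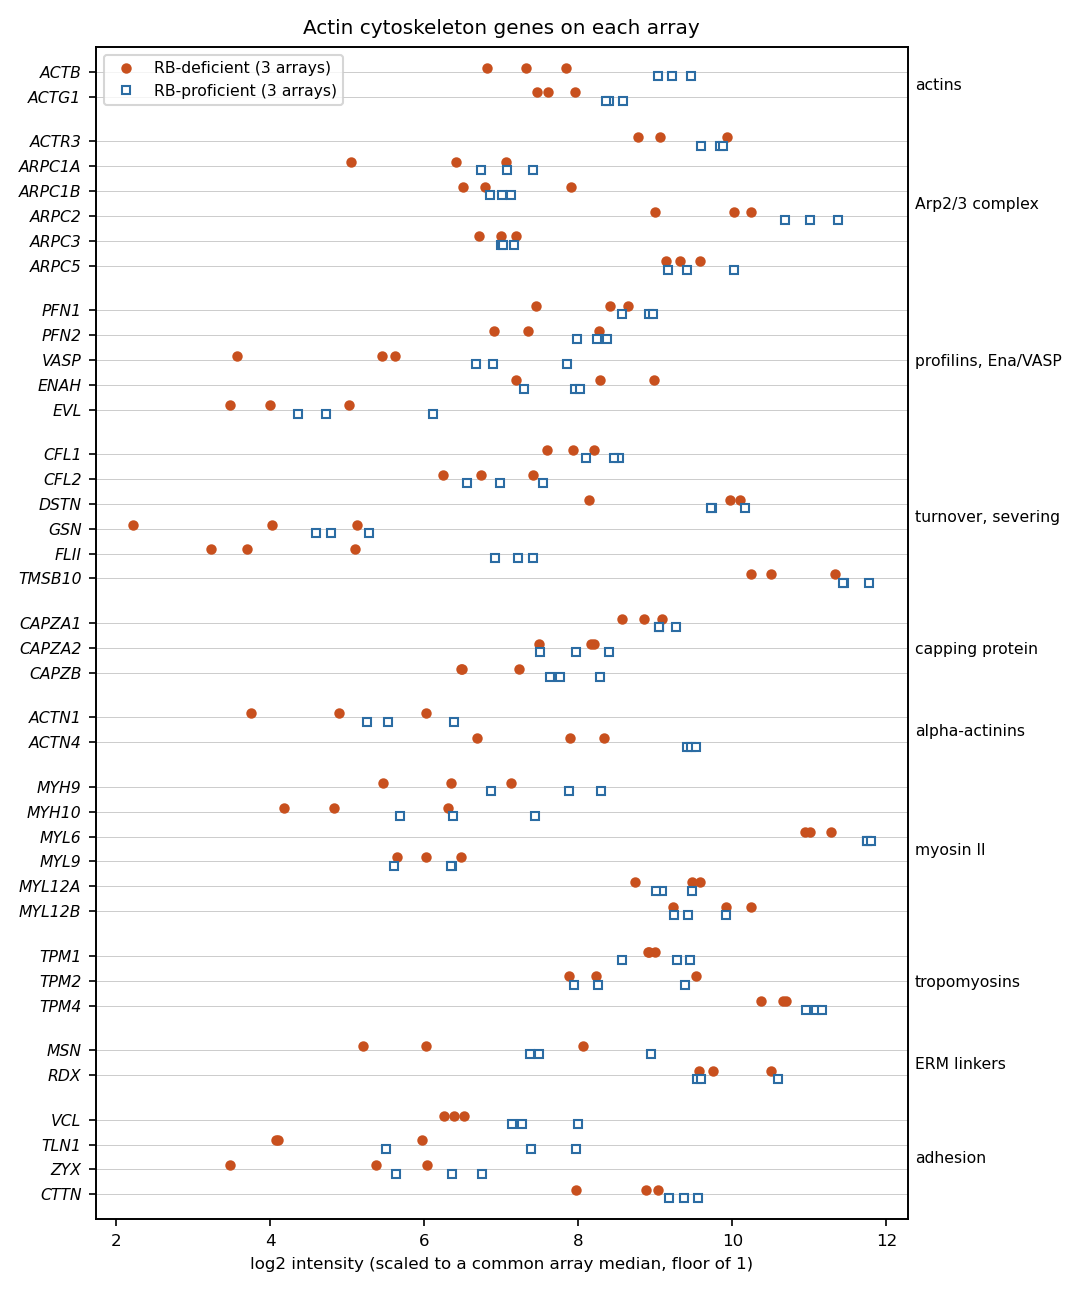
Log2 intensity (x axis) of the 39 measured genes, in rows by role, with filled circles for the 3 RB-deficient arrays and open squares for the 3 RB-proficient arrays. ACTB, FLII and ACTN4 show a gap between the groups, while MYL12A, MYL12B, TPM2 and RDX are interleaved.

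**Figure D3:**
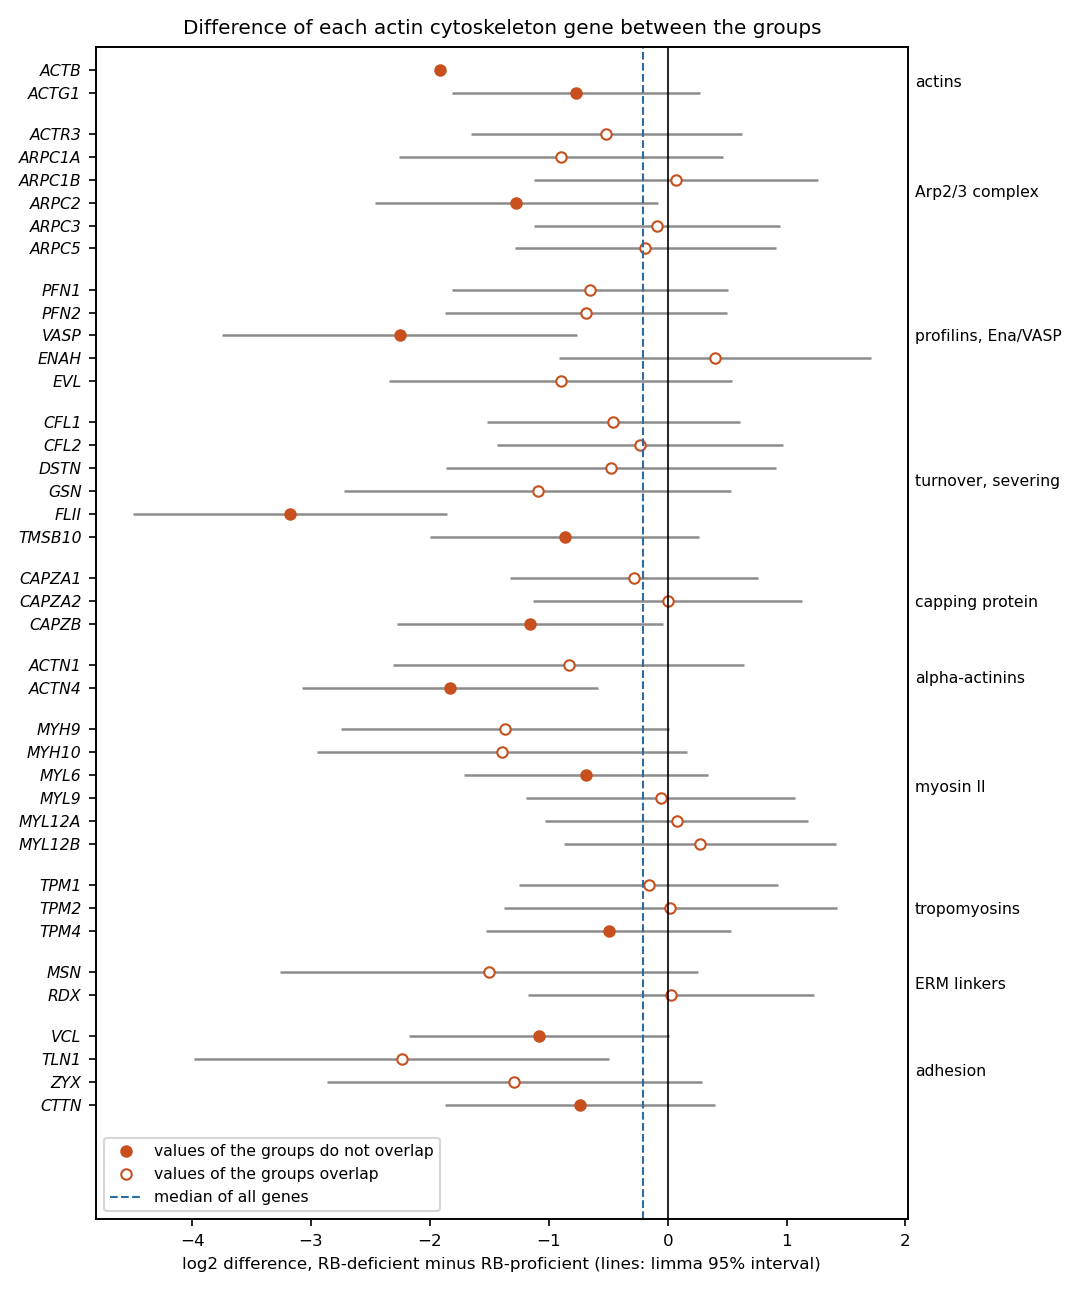
Log2 difference, RB-deficient minus RB-proficient (x axis), of the 39 genes in rows by role, with 95% intervals from limma for all but ACTB and filled points where the groups do not overlap. The intervals of 6 genes (ARPC2, VASP, FLII, CAPZB, ACTN4 and TLN1) lie below 0, before any adjustment, and the dashed line marks the median of all genes at −0.21.

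The 11 separated genes were low on all 3 RB-deficient arrays, and the arrays were also compared one by one. Relative to each gene's RB-proficient mean, the median over the 38 genes was −0.39 on RB-deficient array 1, −0.83 on array 2 and −0.51 on array 3, where the median over all genes was −0.14, −0.37 and −0.14. A value below all RB-proficient values was found for 22, 27 and 24 of the 38 genes on these arrays (57.9%, 71.1% and 63.2%), against 42.1%, 48.0% and 37.6% of all genes. A value above all RB-proficient values was found for 5, 5 and 1 of the 38 (13.2%, 13.2% and 2.63%), against 35.2%, 30.4% and 25.5% of all genes. Within the brightest 25% of genes, the medians were −0.27, −0.70 and −0.45 over the 29 actin genes there, against −0.16, −0.67 and −0.27 over all genes as bright. Of these 29, 55.2%, 65.5% and 69.0% lay below all RB-proficient values, against 42.0%, 63.8% and 46.2% of all genes as bright. On array 2 the actin genes thus lay close to other bright genes. RB-deficient array 2 was the lowest of the 3 for 19 of the 38 genes, array 3 for 14 and array 1 for 5. ACTB was lowest on array 3, as were ACTG1, TMSB10, MYL6, MYL12A, MYL12B, PFN1 and CFL1, whereas VASP and ZYX were lowest on array 1 and FLII, ACTN4, ARPC2 and CTTN on array 2. The SD of a gene had a median of 0.61 over the 38 genes in RB-deficient and 0.35 in RB-proficient cells.

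**Figure D4:**
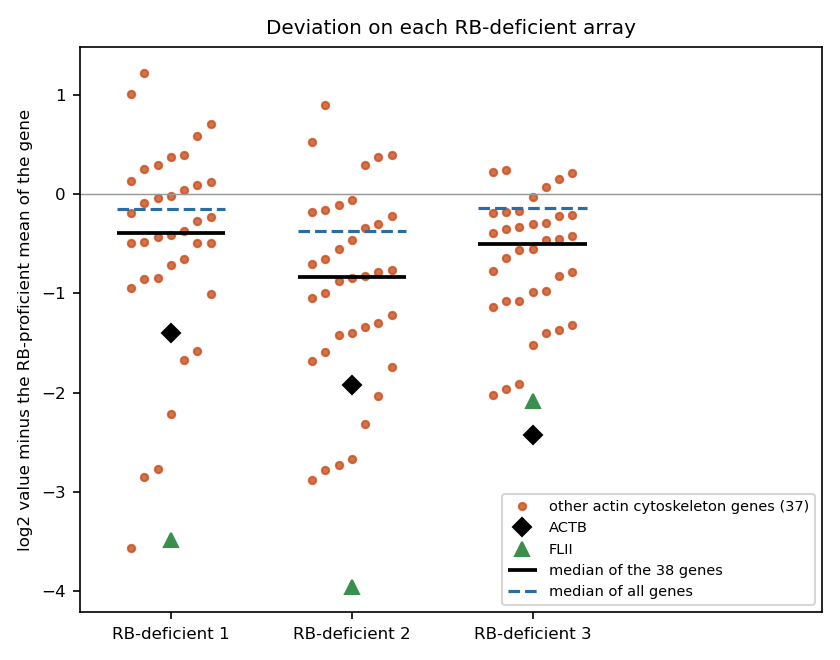
Log2 value of each gene on RB-deficient arrays 1, 2 and 3 minus its RB-proficient mean (y axis), with a dot per gene other than ACTB and FLII, solid bars for the median of the 38 genes (−0.39, −0.83 and −0.51) and dashed bars for the median of all genes (−0.14, −0.37 and −0.14). ACTB (diamond) is lowest on array 3, and FLII (triangle) lies over 2 units below 0 on every array.

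Other genes of the actin pathway, from lists compiled by function, lay in the same range. Over 65 measured genes for nucleation regulators, further actin-binding proteins and the serum response factor pathway, the median difference was −0.71. Of these, 51 were below 0 (78.5%, against 58.6% of all genes), 20 were separated with the RB-deficient arrays below (30.8%, against 15.3% of all genes) and 6 were separated the other way (9.23%, against 7.12% of all genes). At an adjusted p of 0.05 none of the 65 passed in limma's test. At an unadjusted p under 0.05 it gave 18 of the 65 as lower (27.7%, against 10.8% of all genes) and 1 as higher, where 525 of all 18417 genes were higher.

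Here and in the lists below, the genes named are the 3 of smallest p in limma's test, so they do not stand for their list. Of 22 nucleation regulators, 5 were separated below (22.7%, against 15.3% of all genes) and 3 above (13.6%, against 7.12%), with a median of −0.55. Their differences ran from −2.29 to 1.05, and the smallest adjusted p in limma's test was 0.218. CYFIP1, a subunit of the WAVE complex that turns on Arp2/3, differed by −2.17 (SE 0.60), DIAPH1, a formin, by −1.41 (SE 0.54) and WASF2, a WAVE protein, by −1.28 (SE 0.53). Of 38 further actin-binding genes, 13 were separated below (34.2%) and 3 above (7.89%), with a median of −0.77. The range was −2.33 to 1.31, with a smallest adjusted p of 0.210 in limma's test. CAPG, a capping protein of the gelsolin family, differed by −2.33 (SE 0.60), TAGLN2, a transgelin, by −1.96 (SE 0.49) and ACTN2, the muscle alpha-actinin, by −1.63 (SE 0.47). ACTN2 was dim, at 3.25, 3.06 and 3.32 on the RB-deficient arrays and 4.53, 4.83 and 5.16 on the RB-proficient arrays. It lay below the median of all genes on every array, so its difference rests on dim values that may be background.

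SRF, which encodes serum response factor, had log2 values of 3.90, 3.35 and 4.37 on the RB-deficient arrays, and 6.04, 5.28 and 5.92 on the RB-proficient arrays. All RB-deficient values lay below, and the difference of −1.87 (SE 0.51, 3.67-fold) had adjusted p = 0.214 in limma's test. Its coactivator MRTFB, which senses free actin monomers, differed by −0.74 (SE 0.54) and SCAI, which represses that coactivator, by −1.32 (SE 0.61). Of the 8 genes of this list 5 were measured. All 5 were below 0, as were 58.6% of all genes, and 2 were separated below (40%, against 15.3% of all genes).

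Muscle contractile genes served as a contrast within the actin and myosin families, and their 27 measured genes had a median difference of 0.04, with 13 below 0 (48.1%, against 58.6% of all genes), 1 separated below (3.70%, against 15.3%) and 2 above (7.41%, against 7.12%). MYH6, a cardiac heavy chain, differed by −1.79 (SE 0.53), TNNI2, a fast skeletal troponin, by 1.41 (SE 0.56) and MYL3, a ventricular light chain, by 1.16 (SE 0.49), with adjusted p-values of 0.231 to 0.346 in limma's test. Their median mean signal was 4.13, against 7.96 for the 38 actin genes, so the 2 sets differ in brightness.

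The tubulins, which build the microtubules, had 10 of 11 measured genes below 0 and a median of −0.57, with 2 separated below (18.2%, against 15.3% of all genes). TUBB, a beta-tubulin, had values of 7.28, 6.96 and 6.25 on the RB-deficient arrays, and 8.79, 8.71 and 9.57 on the RB-proficient arrays. These come from the brightest of its 3 probe sets, and their difference was −2.19 (SE 0.52, adjusted p = 0.208 in limma's test). TUBG1, the gamma-tubulin of centrosomes, differed by −2.51 (SE 0.52) and TUBA4A by −1.25 (SE 0.61), with adjusted p-values of 0.206 and 0.396 in limma's test. Of 10 measured reference genes of common use, 8 were below 0 with a median of −0.76, led by GAPDH (−1.23, SE 0.47), SDHA (−1.04, SE 0.56) and PGK1 (−0.93, SE 0.54). The medians of tubulins and reference genes thus lay beside the −0.69 of the actin genes, and their differences from it were not tested.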

How the data were processed

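The deposited intensities, 1 per probe set and array on a linear scale, come from the authors' use of Affymetrix Expression Console 1.1, per the submitters' processing notes. RNA was amplified before labelling by the WT-Ovation Pico method, per the labels' protocols. How the authors summarised, background-corrected and normalized the values is not given in the sources used here. No detection calls were used, so dim values may be background. Arrays were scaled to the median of their medians, 26.8, then floored at 1 and log2-transformed. Of 33297 probe sets, 19460 had a single gene symbol, for 18417 genes, and the brightest on average stood for its gene. All genes were fitted with limma 3.58.1 (lmFit, eBayes, no covariates, two-sided) under R 4.3.3, with Benjamini-Hochberg adjustment over all of them. The fit was also run on simulated data in which both groups shared 1 SD per gene. That run does not cover the unequal spread here, where the median SD over all genes was 0.84 in RB-deficient and 0.40 in RB-proficient cells. Members and lists were chosen with earlier results of these data known. Named by rule were all 46 genes, the 3 genes of smallest p in each other list, and RB1. No 2 arrays held identical values. One further list of regulators is not reported here.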

Additional observations from a re-analysis of the deposited data

How the results depend on the processing

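The count of all genes past an adjusted p of 0.05 in limma, 1 as reported, was 0 after quantile normalization and without the dimmest 25% of genes (2472 and 2265 genes at an unadjusted p under 0.05), 4 without the dimmest 50%, 58 with a floor of 16, 61 with trend and robust and 193 with an offset of 16, and it ran from 0 to 4 with single arrays left out. Of the 38 actin genes 0 passed as reported, 1 with trend and robust (FLII), 2 with the offset (FLII and ACTN4) and 0 under every other alternative. The number separated below, 11, was 9 after quantile normalization (13.4% of all genes were separated that way) and 13 without scaling (16.1% of all genes), and ran from 12 to 19 with single arrays left out (17.9% to 26.3% of all genes). It was 19 without RB-deficient array 3, where 3 of the 38 were separated above, against 15.5% of all genes. It was 24 without RB-deficient arrays 1 and 2, where 37.6% of all genes were separated below. There 1 of the 38 was separated above, against 25.5% of all genes. Fewer arrays make separation easier. The median over the 38 genes stayed negative in every alternative, from −0.77 to −0.48, while the median of all genes, −0.21, was −0.09 after quantile normalization and −0.08 after centring and with the offset. With a floor of 16 it was 0.00, with 49.4% of all genes below 0 against 58.6% as reported, and the median over the 38 was −0.67. Of the 38, 29 were below 0 after quantile normalization or centring.

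With the replicate number as a block, 1 gene and 0 actin genes passed, as without it. Same-numbered arrays did not deviate together (r of −0.12, 0.07 and −0.11 across genes, and 0 of 6 arrays correlated best with its own number), so no pairing was used.

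Of the 38 genes 26 kept their sign in all alternatives that left out at most 1 array. Of these 26, ACTR3 (0.16), PFN2 (0.077), GSN (0.24) and MYL12B (−0.30) changed sign without RB-deficient arrays 1 and 2. Leaving out 1 array moved the difference by over 1.5 times for 26 of the 38 genes. Besides those given above (ARPC3 0.10 and 0.043, CAPZA2 0.22 and 0.13, MYL9 0.092 and 0.075, MYL12A −0.13, TPM2 −0.023 and RDX −0.018), the sign turned with array weights for CAPZA2 (0.060) and TPM2 (−0.050). With single arrays left out the differences ran from −0.35 to 0.35 for ARPC1B, −0.20 to 0.036 for ARPC3, −0.37 to 0.057 for ARPC5, −0.016 to 0.88 for ENAH, −0.54 to 0.046 for CFL2, −0.83 to 0.16 for DSTN, −0.23 to 0.23 for CAPZA2, −0.31 to 0.14 for MYL9, −0.081 to 0.34 for MYL12A, −0.43 to 0.017 for TPM1, −0.47 to 0.45 for TPM2 and −0.25 to 0.37 for RDX. None of these 12 was called in any alternative, and the cause of the sign changes was not tested. The omission of 2 arrays and the restriction to the brightest 25% of genes were chosen after seeing the data.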
